A study of Mus musculus with 2 samples.

Results

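The genes described here are 8 regulators and products of blood and endothelial progenitors, namely Etv2, Tal1, Kdr, Sox7, Klf1, Spi1, Gata1 and Hbb-bh1, out of 13697 genes named on a mouse expression array. They were taken as the probes whose only gene symbol is 1 of these names, which gave 1 probe per gene and left no member without a probe. The samples were embryoid bodies, floating clusters of differentiating embryonic stem (ES) cells, grown from Elongin A-/- or Elongin A+/+ ES cells and collected at day 4 of treatment with 2 µM retinoic acid. Both cultures received retinoic acid, and serum-containing medium with N2 supplement. There was 1 array for Elongin A-/- and 1 array for Elongin A+/+, so no difference below was tested and none has an error between cultures. The labels do not say how many ES cell clones or cultures stand behind each array, so genotype, clone, culture and array cannot be told apart. The 8 genes were picked with these same values known, so their levels and differences are a description.

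In the mouse embryo, blood and endothelium arise together from mesoderm that carries KDR, the main receptor for the growth factor VEGF. ETV2, an ETS transcription factor, is needed for this progenitor to form, and TAL1, a basic helix-loop-helix factor, for it to make blood. GATA1 and KLF1 then drive red cell genes, among them the embryonic globins, while SPI1 (PU.1), another ETS factor, drives myeloid genes. SOX7 is a SOX factor of endothelium and of extraembryonic endoderm. Elongin A is the large subunit of Elongin, which speeds RNA polymerase II along genes.

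Several of the 8 genes encode factors that recognise short DNA motifs, so the stretches before the gene starts are shown for 3 genes that were higher on the Elongin A-/- array and for Klf1, which was not. Each line gives the 250 bases before the start, 5′ to 3′ on the strand of the gene, from RefSeq on build GRCm38.p6. Capitals mark GGAA, the core recognised by ETS factors, AGATAA and TGATAA, recognised by GATA factors, and CCACCC, recognised by KLF factors, each on either strand.
Etv2: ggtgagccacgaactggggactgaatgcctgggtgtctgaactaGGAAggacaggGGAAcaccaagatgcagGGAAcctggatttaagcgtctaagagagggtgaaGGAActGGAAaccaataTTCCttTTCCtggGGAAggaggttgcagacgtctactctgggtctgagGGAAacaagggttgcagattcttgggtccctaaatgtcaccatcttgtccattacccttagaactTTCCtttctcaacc
Tal1: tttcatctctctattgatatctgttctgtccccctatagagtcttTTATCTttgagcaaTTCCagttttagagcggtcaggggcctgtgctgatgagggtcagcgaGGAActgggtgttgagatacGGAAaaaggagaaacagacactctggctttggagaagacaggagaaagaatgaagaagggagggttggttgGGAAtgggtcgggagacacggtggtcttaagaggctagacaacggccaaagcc
Kdr: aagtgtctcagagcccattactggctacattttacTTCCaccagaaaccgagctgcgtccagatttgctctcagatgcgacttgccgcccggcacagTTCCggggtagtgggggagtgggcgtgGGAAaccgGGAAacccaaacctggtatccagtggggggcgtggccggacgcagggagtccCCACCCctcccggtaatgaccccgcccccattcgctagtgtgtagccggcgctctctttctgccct
Klf1: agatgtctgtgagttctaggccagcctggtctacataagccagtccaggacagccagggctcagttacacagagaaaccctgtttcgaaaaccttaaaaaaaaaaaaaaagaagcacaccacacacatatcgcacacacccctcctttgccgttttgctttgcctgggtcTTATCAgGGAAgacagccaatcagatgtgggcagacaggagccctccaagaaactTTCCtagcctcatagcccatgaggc
The Etv2 stretch is chr7:30635853-30636102 on the minus strand, that of Tal1 chr4:115056176-115056425 on the plus strand, that of Kdr chr5:75978456-75978705 on the minus strand and that of Klf1 chr8:84901732-84901981 on the plus strand. Counts were taken over windows of 300 bases that also hold the first 50 transcribed bases, and were set against 27025 such windows, 1 per gene symbol. Etv2 had 11 GGAA matches and no GATA match, E box (CANNTG) or CCACCC, and 0.252% of all windows hold that many GGAA matches or more. Tal1 had 4 GGAA matches, 1 AGATAA and 1 E box in the window shown, while its other window had 4 GGAA matches and neither a GATA match nor an E box. Kdr had 5 GGAA matches, 1 CCACCC and 1 E box. Klf1 had 2 GGAA matches, 1 TGATAA, 1 CCACCC within the transcribed bases that are not printed, and 1 E box. Gata1 had 2 GGAA matches, 1 CCACCC and 1 E box. The share of all windows with as many GGAA matches or more was 28.7% for Kdr, 46.3% for each Tal1 window, and 84.7% for Klf1 and for Gata1. For comparison, 95.9% of all windows hold GGAA, 19% hold AGATAA or TGATAA, 30.9% hold CCACCC and 72.1% hold an E box, while the longer forms CCGGAAG (9.12% of windows) and CCACACCC (3.57%) were found in none of these 5 genes. The marked motifs do not overlap one another in these windows, and a match is only a match of letters.

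Each gene has its own probe, so levels are compared here between the arrays and not between genes. Intensities are given after quantile normalisation, with the deposited value in the same sentence, and the floor is the array median, 1.03, under which a value is treated as not measured. A log2 difference is the Elongin A-/- array minus the Elongin A+/+ array, and where 1 array is under the floor the difference is a bound, marked by "at least". Different probes of 1 gene disagreed in this difference with an SD of 0.43 on the log2 scale over 224 genes, the only error these arrays hold. Only probes above the floor on both arrays entered it, so it does not cover values under the floor. No member has another probe to set beside its own.

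The early progenitor genes Kdr, Etv2 and Tal1 were all higher on the Elongin A-/- array. Kdr gave 54.4 on the Elongin A-/- array (56.1 as deposited), against 2.23 on the Elongin A+/+ array (2.13 as deposited), a 24.4-fold difference. Both values lay above the floor, so this is a measured difference on both sides, 4.61 on the log2 scale. In such bulk samples, here and below, more cells of a type and more RNA per cell cannot be told apart. Etv2 gave 19.3 on the Elongin A-/- array (20.2 as deposited), against 3.09 on the Elongin A+/+ array (2.92 as deposited), which is 6.25-fold and 2.64 on the log2 scale. Etv2 was above the floor on the Elongin A+/+ array too, so its transcript was measured in both cultures. Tal1 gave 10.8 on the Elongin A-/- array (11.2 as deposited), against 0.876 on the Elongin A+/+ array (0.886 as deposited). Its value for Elongin A+/+ was under the floor, so Tal1 was at least 10.6-fold higher, and the size of the difference beyond that bound was not measured.

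Sox7 followed the same direction. It gave 14.9 on the Elongin A-/- array (15.6 as deposited), against 1.25 on the Elongin A+/+ array (1.23 as deposited), 11.9-fold and 3.57 on the log2 scale. The lower of these values is just above the floor, so its ratio is approximate.

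The regulators of committed red and myeloid cells were under the floor on the Elongin A-/- array, where none of the 3 was measurable. Klf1 gave 0.923 on the Elongin A-/- array (0.915 as deposited), against 1.52 on the Elongin A+/+ array (1.47 as deposited), at least 1.48-fold lower. Spi1 gave 0.345 on the Elongin A-/- array (0.326 as deposited), against 1.76 on the Elongin A+/+ array (1.68 as deposited), at least 1.71-fold lower. Both genes were measured on the Elongin A+/+ array only, so each difference is a bound set by the floor. With no floor the log2 difference of Spi1 was -2.35, and with the median of chromosome 8 removed Klf1 just reached 2-fold lower. Gata1 gave 0.547 on the Elongin A-/- array (0.526 as deposited), against 0.864 on the Elongin A+/+ array (0.875 as deposited), under the floor on both, and no difference is given for it.

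Hbb-bh1, an embryonic beta-globin of primitive red cells and the only globin among the 8, was higher on the Elongin A-/- array, where Klf1 and Gata1 were under the floor. It gave 8.29 on the Elongin A-/- array (8.68 as deposited), against 0.873 on the Elongin A+/+ array (0.883 as deposited), at least 8.07-fold higher. With the floor raised to the 75th percentile its bound shrank to 0.67 on the log2 scale, below 2-fold. The beta-globin genes are close copies of one another, and the probe sequences were not used here, so whether this probe also reports other beta-globins was not tested.

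**Figure D1:**
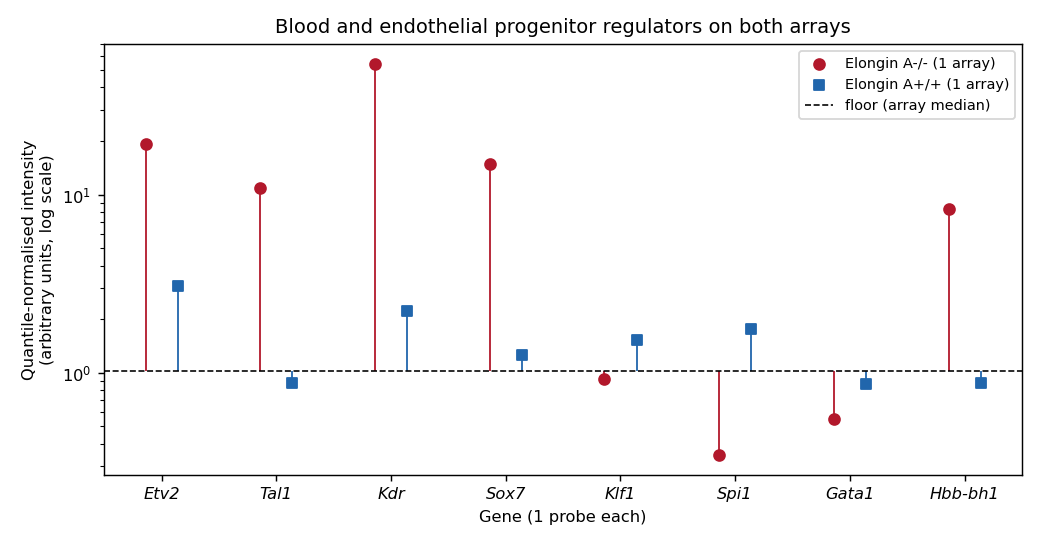
Quantile-normalised intensity (log scale, arbitrary units) of the 8 genes on the Elongin A-/- array (circles) and the Elongin A+/+ array (squares), with 1 array each and lines drawn to the floor at the array median. Etv2, Tal1, Kdr, Sox7 and Hbb-bh1 are higher on the Elongin A-/- array, while Klf1 and Spi1 are under the floor there and Gata1 is under it on both arrays.

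Of the 7 members above the floor on at least 1 array, 5 were at least 2-fold higher on the Elongin A-/- array, beside 6.76% of the 9568 measured genes, and 0 were at least 2-fold lower, beside 5.97%. The median log2 difference was 3.01 over these 7 members and -0.02 over all measured genes. Since the members were chosen on this contrast, these figures describe the choice. Among all measured genes, ordered by difference with bounds at their bound, Kdr stood at place 6 from the top, Sox7 at 18, Tal1 at 21, Hbb-bh1 at 35 and Etv2 at 51. The places of Spi1 and Klf1 are set by the floor and are not given. Above the floor only on the Elongin A-/- array were Tal1 and Hbb-bh1, beside 10.8% of measured genes, and only on the Elongin A+/+ array were Klf1 and Spi1, beside 10.5%.

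**Figure D2:**
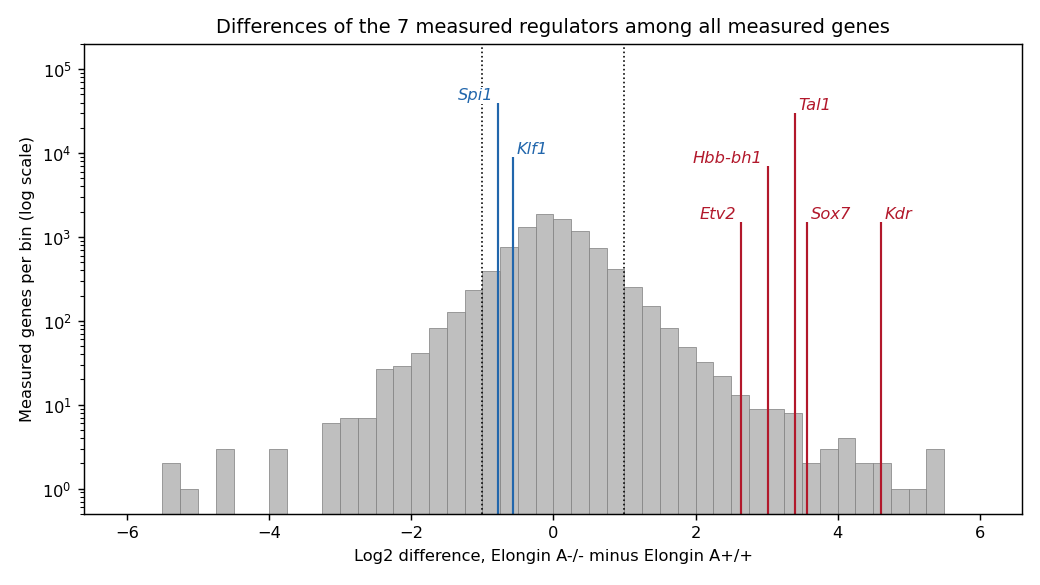
Number of measured genes (log scale) by log2 difference, Elongin A-/- minus Elongin A+/+, in bins of equal width, with a line for each of the 7 measured regulators and dotted lines at 2-fold. Kdr (4.61), Sox7 (3.57), Tal1 (3.40), Hbb-bh1 (3.01) and Etv2 (2.64) lie in the upper tail, and Klf1 (-0.57) and Spi1 (-0.77) within 2-fold. The lines differ in height only to keep the names apart, and Tal1, Hbb-bh1, Klf1 and Spi1 are drawn at their bounds.

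The members lie on 7 chromosomes, and most of the nearest measured genes differed by less. Kit and Pdgfra, receptor genes near Kdr on chromosome 5, gave 5.99 and 0.825 on the Elongin A-/- array, against 4.30 and 1.22 on the Elongin A+/+ array, while Kdr was 24.4-fold higher. On the other side of Kdr, Srd5a3 and Tmem165 were 1.53-fold and 1.89-fold lower. Etv2 lies between Cox6b1, a subunit gene of cytochrome c oxidase, and Rbm42, which encodes an RNA-binding protein. Cox6b1 was 1.37-fold higher and Rbm42 was 1.01-fold higher on the Elongin A-/- array. Pinx1, the gene before Sox7, was 1.69-fold higher. Hbb-y, the other embryonic beta-globin gene and the next gene after Hbb-bh1, gave 1.52 on the Elongin A-/- array, against 0.697 on the Elongin A+/+ array, at least 1.48-fold higher. Over the 2 nearest measured genes on each side of each member, 32 genes in all, the median log2 difference was -0.08. Several of the 32 differences are bounds set by the floor, and the genes taken for Tal1 lie 3 to 25 genes away from it. Of the 32, 1 was at least 2-fold higher (Wdr13, near Gata1), beside 6.76% of all measured genes. At least 2-fold lower were 2 (Psmc3, near Spi1, and Mast1, near Klf1), beside 5.97%. Chromosome 8, which carries Klf1, had a median of 0.43 over 522 measured genes, while those of the other chromosomes with members lay between -0.13 (chromosome 5) and -0.01 (chromosome 7).

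The partners of TAL1 and GATA1 were split. Lmo2, which encodes the bridging protein of the TAL1 complex, gave 16.3 on the Elongin A-/- array, against 4.13 on the Elongin A+/+ array, 3.95-fold higher. Other parts of that complex were close on the arrays. Ldb1, its scaffold gene, gave 22.5 on the Elongin A-/- array, against 23.0 on the Elongin A+/+ array, and Gata2 gave 14.5 on the Elongin A-/- array, against 12.5 on the Elongin A+/+ array. Tcf3, the gene of the E protein that pairs with TAL1, was 1.35-fold higher. Zfpm1, the gene of a GATA1 partner that lies on chromosome 8, gave 21.0 on the Elongin A-/- array, against 11.4 on the Elongin A+/+ array, 1.85-fold higher. Cbfa2t3, a corepressor gene of the complex that lies on chromosome 8, was 2.83-fold higher, and Myb, a progenitor factor gene, was 2.09-fold higher. Gata3 was 2.32-fold lower. Lyl1, the gene closest to Tal1 in kind, gave 0.359 on the Elongin A-/- array, against 1.17 on the Elongin A+/+ array, at least 1.14-fold lower. Of 13 measured blood transcription factors 3 were at least 2-fold higher and 1 lower, beside 6.76% higher and 5.97% lower among all measured genes, with a median log2 difference of 0.22. With no floor 5 of 17 were higher and 3 lower, and with a 75th percentile floor 1 of 8 was higher. Gfi1, Gfi1b, Nfe2 and Ikzf1 were under the floor on both arrays, and Runx1 was not analysed here.

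Several relatives of Etv2 and Sox7 were higher on the Elongin A-/- array. Of 16 measured endothelial transcription factors 7 were at least 2-fold higher and 0 lower, against the same shares of all measured genes, with a median of 0.48. With a 75th percentile floor 3 of 9 were higher. Sox18, a SOX factor of the same subgroup as Sox7, gave 5.49 on the Elongin A-/- array, against 0.557 on the Elongin A+/+ array, at least 5.35-fold higher. Sox17, the third gene of that subgroup, gave 10.6 on the Elongin A-/- array, against 5.71 on the Elongin A+/+ array, which is 1.86-fold. Hey1, a Notch target, was 3.89-fold higher, Foxc2, on chromosome 8, 3.27-fold and the ETS gene Elf1 2.69-fold. By any amount, 11 of the 16 were higher and 5 lower. Among the lower were Klf2 (1.65-fold), Hey2 (1.47-fold) and the ETS gene Etv6 (1.19-fold). The endothelial ETS genes Erg and Ets1 were under the floor on both arrays, and Fli1 (1.08 on the Elongin A-/- array, against 0.346 on the Elongin A+/+ array) was at it.

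No other VEGF gene measured approached the difference of Kdr. Of 7 ligands, receptors and related genes above the floor, 0 were 2-fold apart in either direction, beside 12.7% of all measured genes. Their median was -0.09, which turned to 0.01 with the values as deposited. With no floor 1 of 12 was at least 2-fold higher and 2 were lower. Vegfa, the main ligand gene of KDR, gave 7.53 on the Elongin A-/- array, against 5.12 on the Elongin A+/+ array, 1.47-fold higher. The coreceptor genes Nrp1 and Nrp2 were at least 1.82-fold and at least 1.71-fold lower. Flt4, the receptor gene of lymphatic endothelium, and Pgf were under the floor on both arrays, and Flt1 was not analysed here.

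Genes that lie downstream of the progenitor are given by lineage, and differences between the lineages were not tested. Of 18 measured endothelial surface and junction genes 12 were at least 2-fold higher and 0 lower on the Elongin A-/- array, beside 6.76% higher and 5.97% lower among all measured genes, with a median of 2.12. Bounds make up 10 of the 18. With a 75th percentile floor 3 of 9 were higher with a median of 0.96, and the median was 1.23 with a 25th percentile floor, 1.51 with no floor and 1.69 with a pseudocount. Their summed intensity was 178 on the Elongin A-/- array, against 26.0 on the Elongin A+/+ array. Cldn5, a tight junction gene, was 38.5-fold higher, and Ramp2, a subunit gene of the adrenomedullin receptor, at least 16.3-fold. Ctla2a was 20.1-fold higher, but from 1.07 on the Elongin A+/+ array, just above the floor, so its ratio is approximate. Cd34, a surface marker of both blood progenitors and endothelium, was at least 7.11-fold higher. Of the defining endothelial genes, Esam was at least 7.10-fold, Emcn at least 5.67-fold, Tek at least 4.70-fold and Pecam1 at least 4.02-fold higher. Cdh5 and Tie1 were under the floor on both arrays, with Cdh5 at 0.613 on the Elongin A-/- array, against 0.289 on the Elongin A+/+ array. Calcrl, Robo4, Stab2 and Nos3 were under it on both arrays as well.

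Of 11 measured globin and red cell genes 4 were at least 2-fold higher and 0 lower, beside 6.76% higher and 5.97% lower among all measured genes, with a median of 0.57. As 8 of the 11 are bounds, the count moved with the floor, to 9 higher and 2 lower of 17 with no floor, 7 higher of 16 with a 25th percentile floor and 1 higher of 2 with a 75th percentile floor. Hba-x, the embryonic alpha-like globin, gave 6.05 on the Elongin A-/- array, against 0.242 on the Elongin A+/+ array, at least 5.89-fold higher, on the same side as Hbb-bh1. Car2, a carbonic anhydrase gene, was 2.28-fold higher, Epor, the erythropoietin receptor gene, 2.06-fold, and Hemgn, a nuclear factor of red cells, at least 2.04-fold. Fech, the last enzyme of heme synthesis, gave 1.98 on the Elongin A-/- array, against 3.92 on the Elongin A+/+ array, which is 1.98-fold lower. Alas2, the red cell enzyme of heme synthesis, Rhag, Ank1 and Epb42 were under the floor on both arrays. With the median of each chromosome removed, the median of this list was 0.21.

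Of 7 measured myeloid genes, 5 were lower and 2 higher on the Elongin A-/- array, and a link to Spi1 was not tested. Among the 7, 3 were lower by 2-fold or more and 0 higher by as much, beside 5.97% and 6.76% of all measured genes. Their median was -0.51. With no floor 3 of 15 were higher and 4 lower. Lyz2, a lysozyme gene, gave 0.854 on the Elongin A-/- array, against 3.82 on the Elongin A+/+ array, at least 3.72-fold lower, Mpo, the myeloperoxidase gene, was at least 3.37-fold lower, and Csf2ra, a cytokine receptor gene, was 2.96-fold lower. Csf3r and Cebpb were 1.42-fold and 1.22-fold lower. Irf8, a myeloid transcription factor gene, was at least 1.48-fold higher, and Fcgr1, an Fc receptor gene, 1.34-fold higher. The defining genes Ptprc, Itgam, Adgre1 and Aif1 were under the floor on both arrays.

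**Figure D3:**
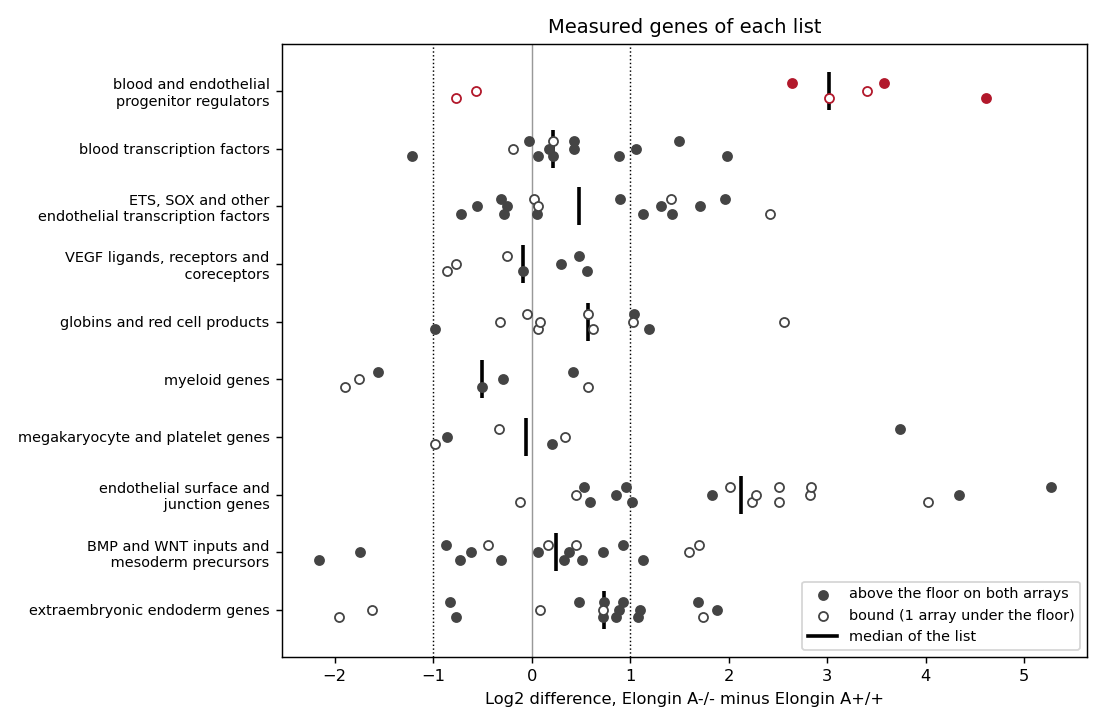
Log2 difference, Elongin A-/- minus Elongin A+/+, of each measured gene in the regulators (top row, red) and 9 related lists, with filled points above the floor on both arrays, open points for bounds, thick bars for the median of each list and dotted lines at 2-fold. The median was 3.01 over the regulators, 2.12 over endothelial surface and junction genes, and -0.51 over myeloid genes.

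SOX7 also marks extraembryonic endoderm, and several genes of that tissue were higher as well. Of 17 measured, 5 were at least 2-fold higher and 2 lower, beside 6.76% higher and 5.97% lower among all measured genes, with a median of 0.73. With a 75th percentile floor 3 of 8 were higher and 0 lower. Their summed intensity was 318 on the Elongin A-/- array, against 165 on the Elongin A+/+ array. Plat, on chromosome 8, was 3.69-fold higher, Ttr at least 3.34-fold and Nid1 3.22-fold, while Afp was at least 3.89-fold lower. By any amount, 13 of the 17 were higher and 4 lower. Besides Afp, the lower genes were Srgn (at least 3.07-fold) and the transcription factor genes Foxa1 (1.78-fold) and Foxa2 (1.71-fold). Gata4, Apoa1 and Amn were under the floor on both arrays, and Gata6 gave 4.40 on the Elongin A-/- array, against 2.65 on the Elongin A+/+ array. The part of that tissue in the Sox7 signal was not tested.

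BMP and WNT inputs to the mesoderm that carries KDR, listed together with mesoderm genes, showed no common direction as a list. Of 18 measured BMP, WNT and mesoderm genes, cardiac factors among them, 3 were at least 2-fold higher and 2 lower. These stand beside 6.76% higher and 5.97% lower among all measured genes, and the median was 0.25. Bmp4, the main inducer of this mesoderm, gave 8.18 on the Elongin A-/- array, against 10.2 on the Elongin A+/+ array, 1.24-fold lower. Wnt5a and Wnt2 were at least 3.23-fold and at least 3.02-fold higher and Nkx2-5, a factor of cardiac progenitors, was 2.19-fold higher, while Wnt3a was 3.35-fold lower and Isl1, a factor of cardiac progenitors and neurons, was 4.47-fold lower. Of the genes of nascent mesoderm, Mixl1 gave 1.40 on the Elongin A-/- array, against 0.242 on the Elongin A+/+ array, at least 1.36-fold higher, while Mesp1, Eomes, Tbx6 and Hand1 were under the floor on both arrays.

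Eloa itself, the gene of Elongin A, gave 3.57 on the Elongin A-/- array, against 3.87 on the Elongin A+/+ array, a log2 difference of -0.12. No source used here places its probe inside or outside the deleted part, so it checks nothing about the labels, and every direction above rests on them.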

How the data were processed

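The values as deposited are linear intensities, 1 per probe and array, from Applied Biosystems chemiluminescent arrays per the labels' protocols, hybridised with digoxigenin-labelled cRNA from total RNA. Their medians were 1.03 on the Elongin A-/- array and 1.02 on the Elongin A+/+ array, and no source used here gives the normalisation. Scanner values were not used here. Precision is limited by the number of arrays.

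Arrays were grouped by title. The log2 intensities of 32440 probes were quantile normalised (numpy 2.4.6, scipy 1.17.1), since the 75th percentiles differed by 0.15 on the log2 scale. Of the probes, 14253 have 1 gene symbol in the platform annotation, 243 have several and 17944 have none. Where a gene had several probes, the one brightest on average stood for it. The floor was the array median, and values under it were set to it. Of 13697 genes, 13690 matched RefSeq of GRCm38.p6 by gene identifier, for chromosomes and gene order, and 5 of the 8 members had a promoter window there.

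With 1 array per genotype no test was run, and genes were counted at 2-fold. The members and lists were chosen with earlier results of these data known. The text names all members, up to 4 genes per list with the largest difference, a few genes whatever their value (Eloa, Sox17, Lmo2, Gata2, Vegfa and Kit among them), the neighbours of the members, and the genes of most similar pattern. Other list genes are named as background, as under the floor or to show both directions, and were chosen after their values were seen. The steps were checked on simulated data, and 9 other settings were tried.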

Additional observations from a re-analysis of the deposited data

How the results depend on the processing

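No paired analysis was possible because there is 1 array per genotype. Under 9 other settings of scaling, floor, probes and chromosome, Kdr, Etv2, Tal1, Sox7 and Hbb-bh1 stayed higher and Klf1 and Spi1 lower on the Elongin A-/- array wherever they were measured. The number of members at least 2-fold higher was 5, and between 4 and 5 under the other settings, with 4 when the floor was at the 75th percentile, where Hbb-bh1 left. The number at least 2-fold lower was 0, and became 1 with a pseudocount at the floor, with no floor and with a 25th percentile floor, Spi1 each time, and 1 with chromosome medians removed, which was Klf1. The median log2 difference of the measured members was 3.01, and it was 1.52 with a 75th percentile floor and 2.30 with the pseudocount, since both pull low values together. Kdr ranged from 3.39 to 4.74, Sox7 from 1.52 to 3.66, Tal1 from 1.06 to 3.63 and Etv2 from 1.89 to 2.78. Klf1 and Spi1 were not measured at the 75th percentile floor.

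Of all measured genes that passed 2-fold, 53.1% were higher on the Elongin A-/- array, or 64.1% without quantile normalisation. The counts higher and lower, 647 and 571, became 1506 and 1414 with no floor, 1075 and 980 with a 25th percentile floor, and 141 and 118 with a 75th percentile floor. The median of the BMP, WNT and mesoderm list was -0.47 under that last floor, where 6 genes were left, and that of the megakaryocyte list 0.54 over 2 genes. Signal near the floor limits Klf1, Spi1, Gata1 and the bounds of Tal1 and Hbb-bh1.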

Other observations

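Platelet and megakaryocyte genes, another branch from the same progenitor, did not share the direction of Kdr as a group. Of 6 measured, 1 was at least 2-fold higher on the Elongin A-/- array, beside 6.76% of all measured genes. Of the 6, 0 were as much lower, beside 5.97%, and the median log2 difference was -0.06. The gene at least 2-fold higher was Clec1b, the platelet receptor for podoplanin. It gave 14.0 on the Elongin A-/- array, against 1.04 on the Elongin A+/+ array, 13.4-fold higher from a value just above the floor. Pf4 and Ppbp, defining platelet genes, were under the floor on both arrays. Gp9, a subunit gene of the platelet receptor for von Willebrand factor, gave 3.66 on the Elongin A-/- array, against 6.65 on the Elongin A+/+ array. Vwf, the gene of that factor, gave 0.982 on the Elongin A-/- array, against 2.03 on the Elongin A+/+ array, at least 1.98-fold lower. Gp5 was at least 1.26-fold higher. With no floor 2 of 9 were at least 2-fold higher and 1 lower, and with a 25th percentile floor 2 of 7 and 1. Centring on the median above the floor gave 1 of 6 lower.

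The genes of most similar pattern were taken as those at the smallest Euclidean distance over the 2 log2 values, which covers 2 arrays only. This distance also sets levels of different probes side by side, so it is a rough description, and Tal1 is left out since its Elongin A+/+ value was under the floor. For Kdr these were Col26a1, Cldn5 and Tmem119 at 0.39, 0.53 and 0.61. For Sox7 they were Clec1b, Acss1 and Pcolce at 0.28, 0.31 and 0.54. For Etv2 they were Gng11, Sgk1 and H2ac4 at 0.16, 0.32 and 0.40.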
